A study of Mus musculus with 18 samples.

Results

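Thy1+ cells from hearts of KK/HlJ mice were compared with those from hearts of C3H/HeJ mice, as a strain difference averaged over the conditions of the study. Members were chosen by the strain label: all 6 KK/HlJ and all 6 C3H/HeJ libraries, which makes 12 of the 18 libraries of the series. KK/HlJ and C3H/HeJ are inbred strains. Each strain has 2 sham libraries (saline, with no day in their labels), 2 libraries from isoproterenol (ISO) hearts taken 14 days after pump implantation and 2 from ISO hearts taken at day 21. ISO is an agonist of beta-adrenergic receptors, and all 3 conditions share the pump surgery. The labels give the sorted cells as Thy1+ HE in one field and Thy1+HE- in another and do not spell out HE. The labels give no age or sex and do not say whether hearts were pooled. Nor do they say that each library is a separate animal, so the p-values below reflect how far these libraries vary, and that variation may be technical. The 6 remaining libraries, from C57BL/6 hearts in the same conditions, are set beside as levels only.

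Thy1 is a surface protein carried by fibroblasts, the cells that make and maintain the collagen matrix of the heart, and also by some other cells. Sustained beta-adrenergic stimulation is a known way to bring on fibrosis, and inbred mouse strains are known to differ in how much they form. Inbred strains differ at many places in the genome, both in single bases and in copies of whole genes. Processed pseudogenes are copies of a messenger RNA that were inserted back into the genome, and genes of ribosomal proteins have many of them. A short read from such a gene can match its copy as well as the gene itself. The submitters' processing notes name the genome build mm10, which derives from C57BL/6.

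The 4 pairs of sequences below are shown because in each of them a called gene has a near-identical partner. Whether reads of one member of a pair were placed at the other was not tested. Each line gives 60 bases of the coding sequence of a gene and the matching bases of its copy, 5′ to 3′, from the GENCODE M21 transcripts on mm10, and capitals mark the bases at which the members of a pair differ. The stretch shown for each pair was picked for having the most differences, so it is not typical of the pair. The bases are those of the reference, not those that KK/HlJ or C3H/HeJ carry.
Rps18: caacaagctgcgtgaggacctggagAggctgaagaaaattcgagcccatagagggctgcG
Gm10260: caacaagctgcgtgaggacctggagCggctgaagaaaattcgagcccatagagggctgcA
Rps3a1: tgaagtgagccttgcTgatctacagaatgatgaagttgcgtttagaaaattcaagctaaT
Rps3a3: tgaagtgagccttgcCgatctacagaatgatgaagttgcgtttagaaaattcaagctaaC
Hspa8: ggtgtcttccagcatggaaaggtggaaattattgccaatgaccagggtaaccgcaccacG
Gm15459: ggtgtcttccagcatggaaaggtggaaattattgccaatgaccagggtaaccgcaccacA
C1ra: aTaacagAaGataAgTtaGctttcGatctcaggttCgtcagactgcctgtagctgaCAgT
C1rb: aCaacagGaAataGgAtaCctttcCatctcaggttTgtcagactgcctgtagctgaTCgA
Rps18 and Gm10260 differ at 4 of 456 aligned coding bases (99.1% identity) and Rps3a1 and Rps3a3 at 8 of 791 (99%). Hspa8 and Gm15459 differ at 5 of 1938 (99.7%), and C1ra and C1rb at 42 of 2118 (98%). A read of 50 bases that covers none of these places cannot be assigned to either member of a pair by its sequence.

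Of 14465 genes tested, 54 differed between the strains (edgeR quasi-likelihood test with a term for condition, Benjamini-Hochberg adjusted p under 0.05), which is 0.373% of genes tested. KK/HlJ was higher for 26 of them (0.18% of genes tested) and C3H/HeJ for 28 (0.194%). At an unadjusted p under 0.05 the test gave 769 genes. Taken over all genes tested, the median difference was -0.04 on the log2 scale. Over all genes, called or not, the 6 KK/HlJ libraries lay above all 6 C3H/HeJ libraries for 49 (0.339%) and below them for 104 (0.719%). Among the 54 the libraries of the strains did not overlap for 50, 24 with KK/HlJ above and 26 with C3H/HeJ above. The 4 whose libraries overlapped were Trim12a, Zbtb20, Apoe and Man2a1. In each of the 54 the fitted difference had the same sign in sham, at day 14 and at day 21.

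Many of the 54 share sequence with another gene. A gene was flagged when at least 10% of the 50-base windows of its transcripts occur unchanged in a transcript of another gene. That held for 28 of the 54 (51.9%), against 2717 of 14465 tested (18.8%). In 25 of the 28 the match lies at another place in the genome, and in 3 (Pltp, Duoxa1 and Lypd1) it comes from a gene that overlaps the same place. Of the 54, 38 are annotated as protein coding and 15 as pseudogenes, while 474 pseudogenes were tested in all. Protein-coding genes without a flag number 23, and these are described first.

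**Figure D1:**
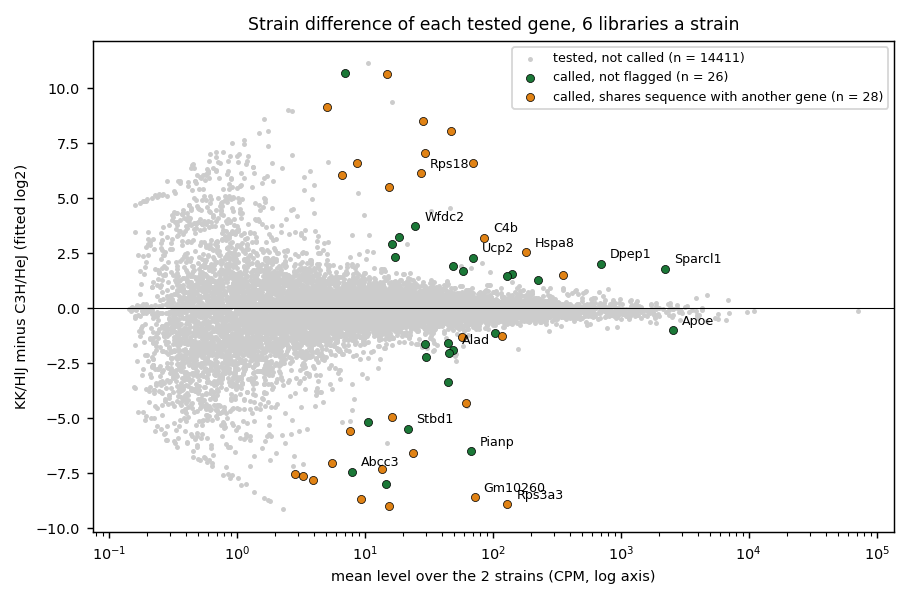
Each point is 1 of the 14465 genes tested, with the mean level of both strains in CPM (counts scaled by library size) on a log axis and the fitted log2 difference, KK/HlJ minus C3H/HeJ, on the vertical axis. Green points are the 26 genes called without a flag and orange points the 28 called that share sequence with another gene. Among the called genes most of those beyond 5 on the log2 scale are orange. There one strain is near 0 and the fitted value is no measure of size, and uncalled genes lie there too.

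Levels below are CPM, counts scaled by edgeR's effective library size, and for each strain the lowest, the median and the highest of its 6 libraries are given. Differences are fitted log2 values, KK/HlJ minus C3H/HeJ, with their standard error (SE) and the adjusted p of the edgeR test. Genes named by size of difference were picked among those without overlap of the strains, so lack of overlap is no further support. Sparcl1, the most abundant called gene higher in KK/HlJ, encodes hevin, a secreted glycoprotein of the SPARC family (chr5:104079111-104113733), and it ran from 2448 through 3091 to 4593 CPM in KK/HlJ and from 621 through 963 to 1371 CPM in C3H/HeJ (log2 1.81, SE 0.194, adjusted p = 2.84e-05). Every KK/HlJ library lay above every C3H/HeJ library, and the C57BL/6 libraries, at 1351 to 1867 CPM, lay mostly between them. Wfdc2 encodes a small secreted protein with whey acidic protein domains (chr2:164562413-164568510). Its levels ran from 14.9 through 29.9 to 159 CPM in KK/HlJ and from 2.04 through 2.72 to 3.57 CPM in C3H/HeJ (log2 3.75, SE 0.469, adjusted p = 0.000228). The strains did not overlap, and the value of 159 CPM came from KK/HlJ sham replicate 1 alone, with the next at 33.5 CPM. Without that library the difference was 3.18 (adjusted p = 0.00405). Wfdc2 is also on the list of mesothelial and epicardial markers, whose 20 members summed to 5074 to 10930 CPM of total counts in KK/HlJ and 4020 to 7654 in C3H/HeJ, and their part in the difference was not tested. In sorted bulk cells, fewer cells of a type and less RNA per cell cannot be told apart. Lbp encodes the lipopolysaccharide binding protein, which hands bacterial lipid to CD14 (chr2:158306493-158332852), and it ran from 221 through 309 to 397 CPM in KK/HlJ and from 57.9 through 124 to 213 CPM in C3H/HeJ (log2 1.30, SE 0.26, adjusted p = 0.0288). KK/HlJ libraries all lay above C3H/HeJ libraries, by a narrow margin between 213 and 221 CPM. Leaving out any of 7 libraries ended the call of Lbp (C3H/HeJ sham replicate 1 or 2, C3H/HeJ day 21 replicate 1 or 2, KK/HlJ sham replicate 2, KK/HlJ day 14 replicate 2 or KK/HlJ day 21 replicate 1), with an adjusted p of 0.0655 to 0.116.

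Dpep1, a membrane dipeptidase that cleaves cysteinyl-glycine and leukotriene D4, had the smallest adjusted p among the unflagged protein-coding genes (chr8:123186242-123201812). It ran from 671 through 1011 to 1768 CPM in KK/HlJ and from 207 through 240 to 392 CPM in C3H/HeJ (log2 2.04, SE 0.194, adjusted p = 6.55e-06). No library of C3H/HeJ reached the lowest of KK/HlJ, and the C57BL/6 libraries, at 729 to 1624 CPM, lay in the range of KK/HlJ. Dpep1 is on the list of resting fibroblast genes, where it was the only member of 28 called, against 0.373% of all genes tested, and 5 members had an unadjusted p under 0.05. The summed levels of that list overlapped, at 107700 to 140900 CPM of total counts in KK/HlJ and 111700 to 150200 in C3H/HeJ. Of its 28 members 25% were higher in KK/HlJ (median -0.13), against 46% of all genes tested (median -0.04).

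Ucp2, an uncoupling protein of the inner mitochondrial membrane (chr7:100493337-100502020), ran from 69 through 123 to 163 CPM in KK/HlJ and from 11.2 through 22.6 to 39.6 CPM in C3H/HeJ (log2 2.32, SE 0.338, adjusted p = 0.00152). Both KK/HlJ sham libraries were lower than all 4 KK/HlJ ISO libraries, and all 6 were above C3H/HeJ. C57BL/6 stood at 7.33 to 29.8 CPM, with the C3H/HeJ libraries. Ada, adenosine deaminase, turns adenosine into inosine (chr2:163726584-163750239). Its levels ran from 11.9 through 31.3 to 63.1 CPM in KK/HlJ and from 0.0886 through 4.10 to 4.43 CPM in C3H/HeJ (log2 3.23, SE 0.573, adjusted p = 0.00963). The lowest C3H/HeJ value belonged to ISO day 21 replicate 1, and the other 5 lay between 3.88 and 4.43 CPM. Without the 4 libraries that correlate least with the rest, the adjusted p of Ada was 0.106. Nnmt, nicotinamide N-methyltransferase (chr9:48591877-48605153), ran from 111 through 175 to 310 CPM in KK/HlJ and from 46.4 through 65.8 to 91.3 CPM in C3H/HeJ (log2 1.46, SE 0.241, adjusted p = 0.00542). The strains were apart, with C57BL/6 at 124 to 218 CPM beside KK/HlJ.

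Ip6k3 makes inositol pyrophosphates (chr17:27143965-27167795), and it ran from 16.2 through 27.5 to 54.4 CPM in KK/HlJ and from 0.532 through 4.46 to 5.08 CPM in C3H/HeJ (log2 2.95, SE 0.518, adjusted p = 0.00891). As with Ada, the lowest value was that of C3H/HeJ ISO day 21 replicate 1. Without KK/HlJ sham replicate 2, which held the highest value, its adjusted p was 0.0655. Akr1e1, an aldo-keto reductase (chr13:4590750-4609174), ran from 12.5 through 30.1 to 46.3 CPM in KK/HlJ and from 2.48 through 5.53 to 11.6 CPM in C3H/HeJ (log2 2.35, SE 0.488, adjusted p = 0.0413). Its strains lay side by side without overlap, and its call held without C3H/HeJ ISO day 14 replicate 2, KK/HlJ ISO day 14 replicate 1 or KK/HlJ ISO day 21 replicate 1 and ended without any of the 9 other libraries (adjusted p up to 0.233). Eef1a2, a translation elongation factor best known from muscle and neurons (chr2:181147653-181157014), ran from 52.9 through 65.2 to 141 CPM in KK/HlJ and from 9.92 through 21.2 to 28.4 CPM in C3H/HeJ (log2 1.94, SE 0.301, adjusted p = 0.00276). Ahnak2, a very large protein related to the scaffold AHNAK (chr12:112772194-112802657), ran from 52 through 89.2 to 133 CPM in KK/HlJ and from 17.4 through 27.5 to 37.3 CPM in C3H/HeJ (log2 1.69, SE 0.256, adjusted p = 0.00221). Neither of these overlapped between the strains, and C57BL/6 was nearer to KK/HlJ in both. Zbtb20, a transcriptional repressor named after its values were seen, was also called (log2 1.55, SE 0.323, adjusted p = 0.0474), with libraries that overlapped at 102 to 478 CPM in KK/HlJ and 54.5 to 108 CPM in C3H/HeJ. Leaving out any of 7 libraries ended its call (C3H/HeJ sham replicate 1 or 2, C3H/HeJ day 14 replicate 1 or 2, C3H/HeJ day 21 replicate 1, KK/HlJ day 14 replicate 1 or KK/HlJ day 21 replicate 2), with an adjusted p up to 0.182, as did offsets for transcript length and GC content (0.324).

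**Figure D2:**
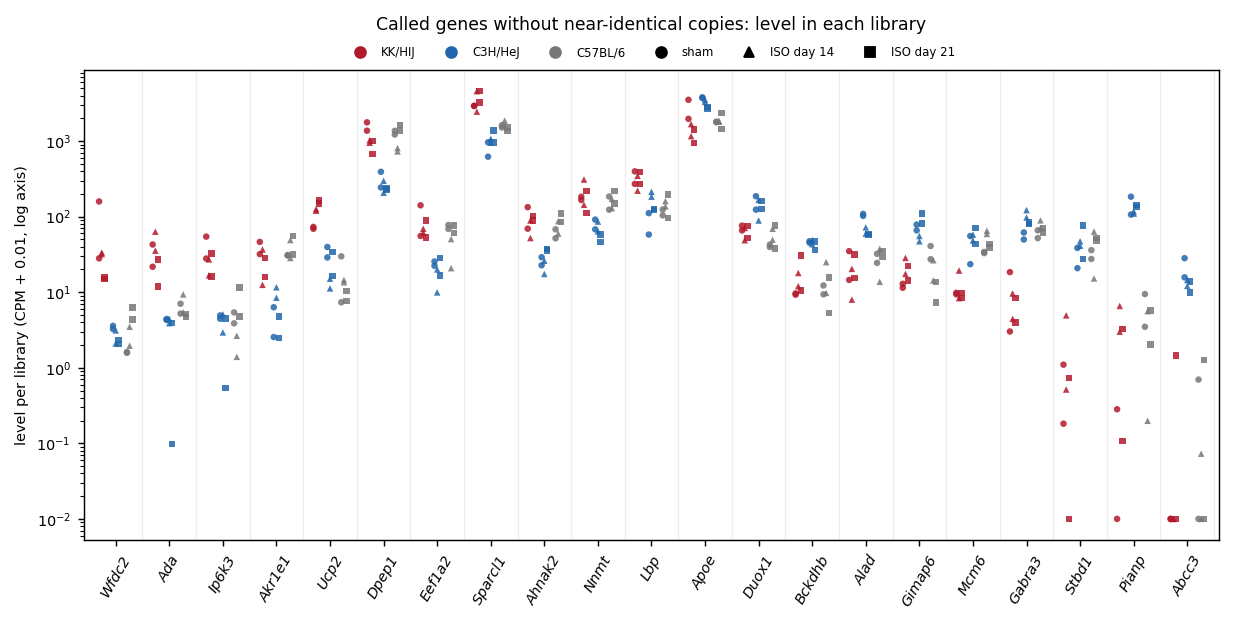
Level of the 21 named genes without a flag in each library, in CPM plus 0.01 on a log axis, coloured by strain and shaped by condition, with no averaging. The genes run from the largest difference in favour of KK/HlJ on the left, where the red points of Wfdc2 lie at 14.9 to 159 CPM, to the most C3H/HeJ-high on the right, where most red points of Abcc3 lie at 0.

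Pianp, Gabra3 and Abcc3, which encode membrane proteins, were among the genes higher in C3H/HeJ. Pianp, a membrane protein that binds PILR-alpha (chr6:124996694-125003096), ran from 106 through 125 to 184 CPM in C3H/HeJ and from 0 through 1.63 to 6.57 CPM in KK/HlJ (log2 -6.49, SE 0.937, adjusted p = 0.00815). The strains were far apart, and C57BL/6 libraries were low too, at 0.189 to 9.44 CPM. Without KK/HlJ ISO day 14 replicate 2 the adjusted p was 0.0527. Gabra3 encodes a subunit of the GABA-A receptor, a chloride channel (chrX:72432681-72656848). It ran from 49.8 through 81.2 to 122 CPM in C3H/HeJ and from 3.01 through 6.39 to 18.4 CPM in KK/HlJ (log2 -3.36, SE 0.437, adjusted p = 0.000458). C57BL/6 stood at 52 to 89.2 CPM, with the C3H/HeJ libraries, so for Gabra3 the low strain was KK/HlJ. Abcc3, an exporter of organic anions of the ABC family (chr11:94343295-94392997), ran from 9.88 through 14.1 to 28.2 CPM in C3H/HeJ (adjusted p = 0.0273). In KK/HlJ 5 libraries had 0 counts, and all 12 counts came from ISO day 21, in replicate 2, at 1.45 CPM, so the size of its fitted difference (log2 -7.42, SE 1.47) rests on few counts. The call ended without any of 8 libraries (C3H/HeJ sham or day 14, KK/HlJ sham or day 14, replicate 1 or 2 of each), with an adjusted p of 0.0545 to 0.101, and the adjusted p was 0.168 without the 4 libraries that correlate least with the rest.

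Stbd1, a glycogen-binding protein (chr5:92603041-92606579), ran from 20.8 through 39.8 to 76.7 CPM in C3H/HeJ and from 0 through 0.616 to 4.92 CPM in KK/HlJ (log2 -5.47, SE 0.898, adjusted p = 0.0117). C57BL/6 was high as well, at 15.2 to 63.4 CPM, and leaving out KK/HlJ ISO day 21 replicate 2 gave an adjusted p of 0.0547. Alad, an enzyme of haem synthesis (chr4:62509169-62519918), ran from 57.4 through 65.8 to 109 CPM in C3H/HeJ and from 7.96 through 17.9 to 34.9 CPM in KK/HlJ (log2 -1.87, SE 0.32, adjusted p = 0.00765). In Alad both C3H/HeJ sham libraries, at 109 and 102 CPM, were above the 4 C3H/HeJ ISO libraries. Bckdhb, a subunit of the branched-chain keto acid dehydrogenase (chr9:83925145-84124240), ran from 36 through 46 to 48.9 CPM in C3H/HeJ and from 9.26 through 11.3 to 30.8 CPM in KK/HlJ (log2 -1.63, SE 0.338, adjusted p = 0.0412). Its C3H/HeJ libraries were close together and above all of KK/HlJ, yet the call ended without any library other than C3H/HeJ ISO day 21 replicate 2 and KK/HlJ ISO day 21 replicate 1 (adjusted p up to 0.139), and also with offsets for transcript length and GC content (0.106). Man2a1, a Golgi mannosidase named after its values were seen (chr17:64600736-64755110), was called with libraries that overlapped (log2 -1.58, SE 0.276, adjusted p = 0.00867, and 0.0563 without C3H/HeJ ISO day 14 replicate 2). It lay at 29 to 112 CPM in C3H/HeJ against 10.8 to 36 CPM in KK/HlJ.

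Apolipoprotein E (Apoe), a carrier of lipids in plasma and between cells (chr7:19696109-19699188), was the most abundant called gene higher in C3H/HeJ. It ran from 2705 through 3398 to 3794 CPM in C3H/HeJ and from 941 through 1547 to 3514 CPM in KK/HlJ (log2 -0.98, SE 0.201, adjusted p = 0.0369). The overlap came from KK/HlJ sham replicate 1 at 3514 CPM, and the other 5 KK/HlJ libraries were below every C3H/HeJ library. Its call held without either C3H/HeJ sham library or KK/HlJ sham replicate 1 and ended without any of the 9 other libraries (adjusted p up to 0.144) and with offsets for transcript length and GC content (0.0715). Apoe was the only called member among 34 genes of lipid uptake and adipogenesis, against 0.373% of all genes tested, and their median was -0.05 against -0.04 for all genes tested. Pltp, the phospholipid transfer protein, named after its values were seen, lay at 127 to 220 CPM in C3H/HeJ against 53.9 to 106 CPM in KK/HlJ without overlap (log2 -1.26, SE 0.209, adjusted p = 0.00552). Pltp overlaps Ctsa, and 10.8% of the windows of Pltp are shared. Without a stated strand setting, reads from that part cannot be told apart.

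Duox1, an oxidase that makes hydrogen peroxide, and Duoxa1, its maturation factor, lie head to head on chromosome 2 with 1.94 kb between them (chr2:122315672-122347972 and chr2:122302191-122313730), and both were higher in C3H/HeJ. Duox1 ran from 88.8 through 143 to 186 CPM in C3H/HeJ and from 48.7 through 68.2 to 76 CPM in KK/HlJ (log2 -1.13, SE 0.222, adjusted p = 0.025). Duoxa1, named after its values were seen, ran from 58.9 through 78.8 to 111 CPM and from 23.4 through 34.7 to 43.6 CPM (log2 -1.29, SE 0.242, adjusted p = 0.0158). Neither overlapped between the strains, and C57BL/6 was as low as KK/HlJ in both. Duox1 lost its call without any library other than replicate 1 of sham in either strain, C3H/HeJ ISO day 14 replicate 2 or KK/HlJ ISO day 14 replicate 1 (adjusted p up to 0.151). Duoxa1, whose place overlaps Duoxa2, lost it without either C3H/HeJ day 14 library, C3H/HeJ day 21 replicate 2, KK/HlJ day 14 replicate 2 or either KK/HlJ day 21 library (up to 0.0799). Offsets for transcript length and GC content also ended both calls (0.0661 for Duox1 and 0.0673 for Duoxa1).

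Gimap6, a GTPase of immune and endothelial cells (chr6:48701582-48708225), ran from 47.1 through 72.1 to 110 CPM in C3H/HeJ and from 11.4 through 15.9 to 28.4 CPM in KK/HlJ (log2 -2.04, SE 0.3, adjusted p = 0.00152). The highest value of Gimap6 in C3H/HeJ was that of ISO day 21 replicate 1. That library also had the highest sum of 22 endothelial markers, at 2705 CPM of total counts, while the other C3H/HeJ libraries went up to 1138 and the KK/HlJ libraries ran from 748.6 to 1394. Without any one library the adjusted p of Gimap6 was at most 0.00943. Of 23 lymphocyte markers 12 were at 0 in all 12 libraries, among them Cd3d and Cd3g, and the sum of the list was at most 8.76 CPM of total counts in KK/HlJ and 3.457 in C3H/HeJ. The part of endothelial cells in the difference was not tested. Mcm6, a subunit of the helicase that opens DNA for replication (chr1:128331590-128359664), ran from 23.5 through 51.9 to 70.7 CPM in C3H/HeJ and from 8.33 through 9.57 to 19.3 CPM in KK/HlJ (log2 -2.21, SE 0.336, adjusted p = 0.00222). It was the only called member of 27 cell cycle genes, against 0.373% of all genes tested, and their median was -0.08. Its C57BL/6 libraries, at 32.9 to 65 CPM, were as high as those of C3H/HeJ.

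Among the called genes most of those with a difference beyond 5 on the log2 scale were flagged, and for several of them the gene and its copy went opposite ways. Rps18 encodes a protein of the small ribosomal subunit and lies on chromosome 17 (chr17:33951999-33956001), while Gm10260 is an annotated gene with the same coding sequence but for 4 bases on chromosome 13 (chr13:97760072-97760632). Rps18 ran from 28.9 through 49.1 to 99.7 CPM in KK/HlJ and from 0 through 0.379 to 2.44 CPM in C3H/HeJ (log2 6.14, SE 0.841, adjusted p = 0.00293, and 0.0607 without the 4 libraries that correlate least with the rest). Gm10260 ran from 0 through 0.259 to 1.64 CPM in KK/HlJ and from 103 through 131 to 243 CPM in C3H/HeJ (log2 -8.58, SE 0.584, adjusted p = 8.22e-07). The C57BL/6 libraries, of the strain the genome comes from, read Rps18 at 23.8 to 100.1 CPM and Gm10260 at 0.0382 to 0.386 CPM. Summed over the family, the level was 54.8 ± 25.2 CPM in KK/HlJ and 148 ± 51.2 CPM in C3H/HeJ (SD, n = 6). In an edgeR fit of counts summed by family, a choice made after seeing the data, C3H/HeJ was higher (log2 -1.47, SE 0.228, adjusted p = 0.00427).

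Another pair of the small ribosomal subunit had the same pattern. Rps3a1 (chr3:86137940-86142702) ran from 20.2 through 47.5 to 117 CPM in KK/HlJ and from 0.0793 through 0.309 to 0.837 CPM in C3H/HeJ (log2 7.08, SE 0.54, adjusted p = 8.22e-07). Rps3a3, a processed pseudogene (chr13:108670603-108671397), ran from 0.086 through 0.166 to 2.99 CPM in KK/HlJ and from 168 through 242 to 399 CPM in C3H/HeJ (log2 -8.91, SE 0.699, adjusted p = 1.67e-05). The sum of the family kept the direction of the copy, at 59.8 ± 35.1 CPM in KK/HlJ against 260 ± 80.1 CPM in C3H/HeJ (SD, n = 6), a difference of -2.25 in the edgeR fit (SE 0.285, adjusted p = 0.000547). Called as single genes in opposite directions, the members of these families were thus higher in C3H/HeJ when added up.

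Hspa8, a constitutive heat shock protein, was the most abundant called and flagged gene higher in KK/HlJ after H2-D1. Hspa8 (chr9:40800984-40810087) ran from 160 through 317 to 395 CPM in KK/HlJ and from 41.3 through 52.8 to 61.7 CPM in C3H/HeJ (log2 2.55, SE 0.235, adjusted p = 6.55e-06). Its processed pseudogene Gm15459 (chr5:5781615-5783555) ran from 73 to 183 CPM in C3H/HeJ, and in KK/HlJ it stood at 79.9 CPM in sham replicate 2 and at or below 0.392 CPM in the other 5. The family sum was 325 ± 62.9 CPM in KK/HlJ and 178 ± 38.5 CPM in C3H/HeJ (SD, n = 6). The sums did not overlap, and their difference did not pass the edgeR test (log2 0.88, SE 0.201, adjusted p = 0.0993). Rpl26 (chr11:68901583-68906989), of the large ribosomal subunit, ran from 83.5 through 139 to 205 CPM in KK/HlJ and from 0.233 through 1.39 to 3.28 CPM in C3H/HeJ (log2 6.61, SE 0.565, adjusted p = 1.41e-05). With its pseudogene Gm15772 added, the difference shrank to 1.23 (adjusted p = 0.0262), and the sums overlapped between the strains.

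For the complement protease C1r only the copy was called. C1rb (chr6:124570294-124581171) ran from 20.3 through 29.1 to 41.9 CPM in C3H/HeJ and from 0 through 0.043 to 0.126 CPM in KK/HlJ, with 5 counts in all of KK/HlJ (log2 -8.99, SE 0.717, adjusted p = 8.22e-07). C1ra (chr6:124512405-124523443), its neighbour on chromosome 6, lay at 236 to 366 CPM in C3H/HeJ against 166 to 414 CPM in KK/HlJ. Added up, C1r was at 330 ± 43.5 CPM in C3H/HeJ and 317 ± 85.3 CPM in KK/HlJ (log2 -0.06, adjusted p = 1). Of 28 tested complement genes, C4b was called higher in KK/HlJ and C1rb in C3H/HeJ, against 0.373% of all genes called, and the median of the list was -0.30.

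Some pseudogenes, chosen after their values were seen, were higher in KK/HlJ. Gm8730, a copy of the ribosomal stalk gene Rplp0, lay at 34.8 to 111 CPM in KK/HlJ against 0 to 0.476 CPM in C3H/HeJ (log2 8.52, SE 0.62, adjusted p = 8.22e-07). Rps26-ps1 lay at 33.7 to 245 CPM in KK/HlJ against 0.0943 to 0.839 CPM in C3H/HeJ (log2 8.07, SE 0.66, adjusted p = 6.55e-06), and Gm1821, a copy of the ubiquitin gene Ubb, from 7.83 to 62.6 CPM and from 0.0932 to 1.67 CPM (log2 5.50, SE 0.731, adjusted p = 0.000476). In C57BL/6 these 3 stayed at or below 0.973 CPM. Unlike Rps18 and Rps3a1, the source genes were not near 0 in C3H/HeJ. Rplp0 lay at 307 to 603 CPM in KK/HlJ and 491 to 869 CPM in C3H/HeJ. Ubb lay at 177 to 293 CPM and 244 to 622 CPM, and Rps26 at 0.516 to 166 CPM and 172 to 488 CPM. None of the families of these 3 pseudogenes was called as a sum (log2 -0.35, -0.55 and -0.54, with adjusted p = 1, 1 and 0.76). Gm10704, a copy of Rtraf, was likewise called alone (adjusted p = 0.0175) and not as a sum (log2 -0.05, adjusted p = 1). Its own call ended without C3H/HeJ sham replicate 2, either C3H/HeJ day 21 library, KK/HlJ sham replicate 2, KK/HlJ day 14 replicate 2 or KK/HlJ day 21 replicate 1 (adjusted p up to 0.16). The Rps2 family was higher in KK/HlJ as a sum (log2 1.97, adjusted p = 0.00505), though its sums overlapped between the strains (from 49.2 CPM in KK/HlJ and up to 51.6 CPM in C3H/HeJ), with 145.8 ± 68.8 CPM against 37.4 ± 11.2 CPM (SD, n = 6), and its member Rps2-ps13 had 1 count in the 6 C3H/HeJ libraries and 2710 in KK/HlJ, a ratio of 3204 with a 95% counting interval of 574.6 to 126600.

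With the copies of each family added together the test called 38 genes or families, 17 higher in KK/HlJ and 21 in C3H/HeJ. Of these, 30 were single genes also called gene by gene, and the rest were families with a member called gene by gene. Among the single genes, Tnxa, H2-D1, H2-Q2 and Trim12a are flagged for a match elsewhere in the genome, and no copy was added to them. The family of Eif5al3-ps held only 1 gene, so its partner Eif5a was not added either. Whether the calls of these genes would remain with their copies added was not tested. The families of Gm4987 and Gm11814 remained called, as did that of C4b, and those of Gm11942 (a copy of Rplp1), Eno1b and Gm4737 (a copy of Ahcy) were not called as sums (adjusted p = 0.538, 0.759 and 1). Eno1b had 4 counts in all of KK/HlJ and 3.87 to 7.93 CPM in C3H/HeJ, and its own call (adjusted p = 0.0468) ended without any 1 of the 12 libraries (up to 0.151).

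**Figure D3:**
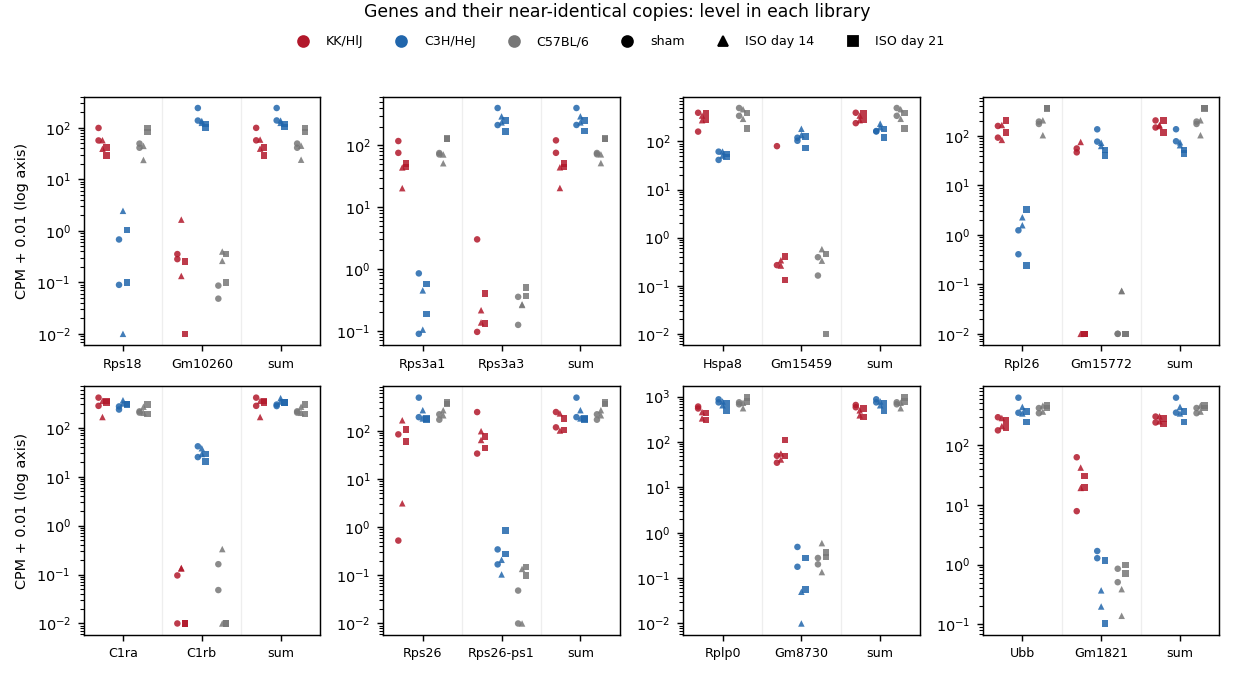
Each panel plots a gene, its near-identical copy and the sum of the 2 in every library, in CPM plus 0.01 on a log axis, coloured by strain and shaped by condition. C3H/HeJ points are near 0 at Rps18 and Rps3a1 and at 103 CPM or more at Gm10260 and Rps3a3, and KK/HlJ points the reverse.

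The KK/HlJ libraries did not read these copies alike, which was noticed after the values were seen. Gm15772 stood at 46.7, 56 and 75.8 CPM in both sham libraries and ISO day 14 replicate 1 and at 0 in the other 3 KK/HlJ libraries. Rps26 stood at 0.516 CPM in sham replicate 1 and 3.12 CPM in ISO day 14 replicate 2, against 60.6 to 166 CPM in the other 4. Rps2 was at 0.272 CPM in sham replicate 2 and 0.0979 CPM in ISO day 21 replicate 1, against 85.6 to 194 CPM in the others. For these genes a KK/HlJ library was either at 46.7 CPM or more or at 3.12 CPM or less, and the low libraries were not the same from gene to gene. The same showed in Trim12a, a gene of the TRIM family of antiviral proteins that is itself flagged (10.5% of windows shared elsewhere). It was at 0 in ISO day 14 replicate 1 and at 7.34 to 14.8 CPM in the other 5. It also showed in the unflagged pseudogene Gm5948, with 0.0907 CPM in sham replicate 2 and 13.7 to 23.7 CPM in the other 5. Gm5948 had 0 counts in all C3H/HeJ libraries, which makes it at least 69.4-fold higher in KK/HlJ against a floor of 3 counts per library (adjusted p = 0.00824). For Trim12a C3H/HeJ had 1 count, and its call (adjusted p = 0.00815) ended without C3H/HeJ ISO day 14 replicate 1 (0.0663) or KK/HlJ ISO day 14 replicate 2 (0.24). The C3H/HeJ libraries ran from 0.159 to 12.1 CPM for Rps2, from 172 to 488 CPM for Rps26 and from 40.8 to 137 CPM for Gm15772.

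By position, chromosome 17 held 8 of 677 tested genes (1.18%) and chromosome 2 held 7 of 1134 (0.617%), against 0.373% over all. On chromosome 17, 6 called genes follow each other with gaps under 1 Mb: Rps18, C4b, Tnxa, H2-D1, H2-Q2 and Gm10499. This stretch holds the mouse major histocompatibility complex, whose class I genes show peptides to T cells and whose haplotypes are known to differ between inbred strains. H2-D1 (chr17:35262730-35267499) ran from 409 through 502 to 725 CPM in KK/HlJ and from 146 through 174 to 225 CPM in C3H/HeJ (log2 1.54, SE 0.187, adjusted p = 0.000155). C57BL/6 libraries, at 352 to 745 CPM, lay above all C3H/HeJ libraries. H2-Q2 (chr17:35342242-35346762), with a gap of 74.7 kb, went the other way, at 27.1 through 30.4 to 37.1 CPM in C3H/HeJ and 0 through 0.678 to 2.58 CPM in KK/HlJ (log2 -4.95, SE 0.893, adjusted p = 0.0186). Both share windows with other class I genes (12.8% and 16.1% elsewhere in the genome), so their reads are uncertain. The call of H2-Q2 ended without C3H/HeJ ISO day 14 replicate 2 (0.0525), C3H/HeJ ISO day 21 replicate 1 (0.0523) or KK/HlJ ISO day 14 replicate 2 (0.0743). Of 28 genes of class I and antigen presentation these 2 were called, against 0.373% of all genes tested, and the median of the list was -0.06.

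C4b, complement component 4 (chr17:34728380-34743882), and Tnxa, a pseudogene of tenascin X (chr17:34771395-34801623), lie 27.5 kb apart and also went opposite ways. C4b ran from 92.3 through 168 to 234 CPM in KK/HlJ and from 7.87 through 15.7 to 22.9 CPM in C3H/HeJ (log2 3.21, SE 0.304, adjusted p = 6.55e-06). Its copy C4a was near 0 in both strains, at up to 0.363 CPM in KK/HlJ and 1.96 CPM in C3H/HeJ, and the family as a sum differed by 3.15 (adjusted p = 2.14e-05). C57BL/6 stood at 90.7 to 223 CPM, above all C3H/HeJ libraries. Tnxa ran from 25.7 through 42.6 to 79.6 CPM in C3H/HeJ and from 0.049 through 0.166 to 6.32 CPM in KK/HlJ (log2 -6.56, SE 0.954, adjusted p = 0.00517). The value of 6.32 CPM was that of KK/HlJ ISO day 14 replicate 1, and the other 5 libraries were at or below 0.574 CPM. Tnxa is flagged, with 25.9% of its windows shared elsewhere, most of them with Tnxb. Its reads are thus uncertain, and no sum with Tnxb was made. On chromosome 2, Ada and Wfdc2 (812 kb apart) were higher in KK/HlJ and Pltp, 271 kb from Wfdc2, in C3H/HeJ. Further neighbours within 1 Mb were Duoxa1 with Duox1 and C1rb with Pianp (416 kb), each pair higher in C3H/HeJ.

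C57BL/6, on whose genome the reads were placed, was on the log2 scale nearer to KK/HlJ in 36 of the 54 genes and nearer to C3H/HeJ in 18. Of 15 flagged genes higher in C3H/HeJ, 14 were nearer to KK/HlJ in C57BL/6, and of 13 flagged genes higher in KK/HlJ, 7 were. Among the 26 genes without a flag the C57BL/6 level was nearer to KK/HlJ for 6 of 13 higher in KK/HlJ and for 9 of 13 higher in C3H/HeJ. These are counts of levels with no test.

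Whether the strain difference depended on ISO was asked with an interaction of strain and condition. No gene was called by edgeR (0% of genes tested, smallest adjusted p = 1), with 144 genes at an unadjusted p under 0.05. That is fewer than evenly spread p-values would give, so the test was cautious here. Its lack of calls does not show that the strain difference is the same in all conditions. DESeq2's likelihood ratio test called 3, Mlph, Eif5a2 and Nfatc2ip. Without KK/HlJ ISO day 14 replicate 2 edgeR called 67 genes, which leaves replicate 1 alone in that group and assumes that it varies like the others, and it called 1 each when a KK/HlJ sham library (replicate 1 or 2) or the first KK/HlJ library of ISO day 14 was left out (Gm15459, Pcdhgc3 and Gm15772). The mean of the ISO conditions minus sham likewise gave 0 genes adjusted and 432 unadjusted. Ucp2 was the unflagged named gene with the smallest interaction p. Its difference was 1.05 in sham, 3.22 at day 14 and 2.64 at day 21 on the log2 scale (edgeR interaction test across all genes, unadjusted p = 0.00755, adjusted p = 1). KK/HlJ sham libraries stood at 69 and 73 CPM and KK/HlJ ISO libraries at 120 to 163 CPM, while C3H/HeJ stood at 28.8 and 39.6 CPM in sham and at 11.2 to 33.9 CPM in ISO, so the gap was wider in ISO without passing the test over all genes. For Dpep1 the differences were 2.31, 1.97 and 1.84, for Sparcl1 1.88, 1.80 and 1.75, and for Duox1 -1.13, -1.10 and -1.17.

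Within single conditions, at 2 libraries a strain, 14 genes were called in sham (0.0968%), 9 at day 14 (0.0622%) and 12 at day 21 (0.083%), with 727, 179 and 168 at an unadjusted p under 0.05. All genes called within a condition were among the 54. The unadjusted counts at day 14 and day 21 are fewer than evenly spread p-values would give, so those tests were cautious too. Of the 16 genes called in 1 or more conditions 11 share sequence with another gene. The 7 called in all 3 conditions all do: Rps2-ps13, Gm8730, Rps26-ps1, Rps3a1, Rps3a3, Gm10260 and C1rb. Unflagged protein-coding genes that passed within a condition were Dpep1 (adjusted p = 0.017), Wfdc2 (0.029) and Pianp (0.045) in sham, and Ucp2 at day 14 (0.0087) and day 21 (0.032). An effect called in one condition and not in another is not shown to differ between them.

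**Figure D4:**
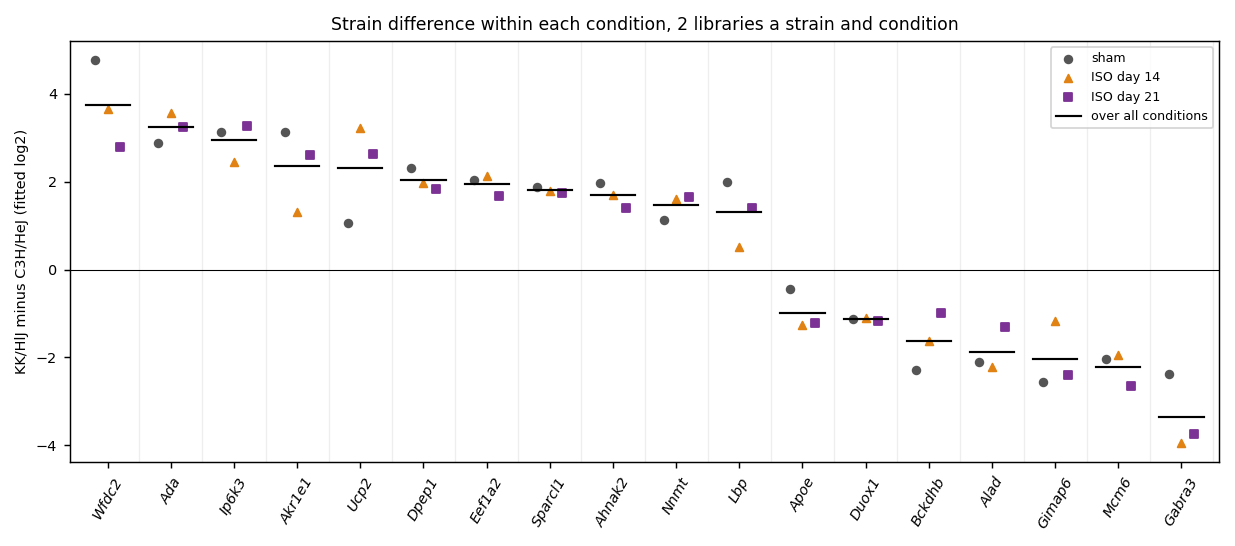
Fitted log2 difference, KK/HlJ minus C3H/HeJ, of the named genes without a flag in sham, at ISO day 14 and at ISO day 21 (symbols, 2 libraries a strain each) and over all conditions (bars). Genes with a strain mean under 2.5 CPM are left out, since their fitted values are no measure of size. Symbols of a gene lie on the same side of 0, with Ucp2 at 1.05 in sham and 3.22 at day 14.

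Of the matrix and fibroblast lists, few members were called. None of 35 activated fibroblast and matricellular genes, 39 collagens, 29 proteoglycans, 19 elastic fibre genes, 33 metalloproteinases and inhibitors, 37 TGF-beta genes or 40 Wnt genes was called, against 0.373% of all genes. At that share a list of this size, here or below, would hold few or no calls, so their absence is no result about its members. Mmp3 averaged 5.49 CPM in KK/HlJ and 120 CPM in C3H/HeJ without overlap (edgeR adjusted p = 0.188). Ltbp4 was also higher in C3H/HeJ without overlap, and no member of these lists was so in KK/HlJ. Over all genes tested 0.719% lay apart with C3H/HeJ above and 0.339% with KK/HlJ above. At those shares few or no members are due, so this is no result about the lists. Of the 39 collagens 28.2% were higher in KK/HlJ, against 46% of all genes tested, with a median of -0.34. An unadjusted p under 0.05 was reached by 7 of them, against 769 of all 14465 genes. Col1a1, the main chain of type I collagen, was at 4790 CPM in KK/HlJ and 6747 CPM in C3H/HeJ on average (log2 -0.47, SE 0.175, adjusted p = 0.663). Periostin (Postn), made by activated fibroblasts, was at 1172 and 1302 CPM (log2 -0.05, SE 0.237, adjusted p = 1). Ltbp2, of the microfibrils, differed by -0.25, Col3a1 by -0.17, the smooth muscle actin Acta2 by -0.14, and the fibroblast genes Pdgfra and Tcf21 by -0.20 and 0.13 (adjusted p = 1 for each). The sign turned under 1 or more alternatives for Postn, Col3a1, Acta2, Pdgfra and Thy1, none of them called, so no direction is given for these. Thy1, the sorted marker, was at 361 CPM in KK/HlJ and 343 CPM in C3H/HeJ (log2 0.08, SE 0.168, adjusted p = 1).

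None of 51 interferon-stimulated genes was called (median -0.42), nor any of 7 class II genes (median -1.05, with 0% higher in KK/HlJ), 73 genes of oxidative phosphorylation (0.07), 42 of beta-adrenergic signalling (0.05), 31 of the insulin and IGF pathway (0.02), 27 innate immune sensors (-0.06), 53 of glutathione and xenobiotic enzymes (-0.20) or 21 serpins (0.20). Hspa8 was the called member among 37 heat shock and ER stress genes (median 0.03), again against 0.373% of all genes tested. Of 22 endothelial markers 13.6% were higher in KK/HlJ (median -0.67) and of 15 tested macrophage and monocyte markers 13.3% (median -0.76), with none called. Higher in KK/HlJ were 80% of 20 mesothelial and epicardial markers (median 0.35, Wfdc2 called), 70.6% of 17 Schwann and glia markers (median 0.19) and 70% of 20 pericyte and smooth muscle markers (median 0.28). The endothelial sums had medians of 979.4 CPM of total counts in KK/HlJ and 943.1 in C3H/HeJ, the reverse order of the list's median. The 22 macrophage and monocyte markers summed to 19.6 to 172.5 CPM of total counts in KK/HlJ and 21.9 to 300.8 in C3H/HeJ, with Itgam, Ccr2 and Ly86 at 0. Their part in any difference was not tested. The mitochondrially encoded list had no tested member and is not analysed here.

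**Figure D5:**
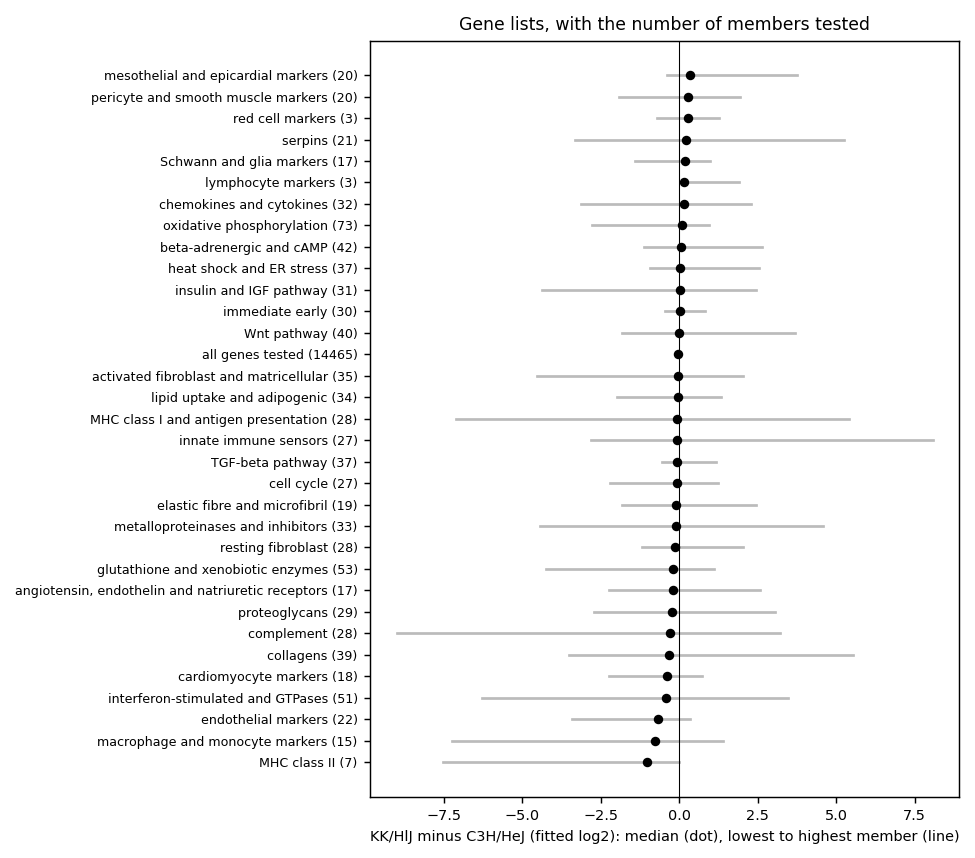
For each gene list with tested members (number in parentheses) the dot is the median fitted log2 difference, KK/HlJ minus C3H/HeJ, and the line runs from the lowest to the highest member. Most medians lie close to the median of all genes tested, -0.04, and the endothelial, macrophage and class II lists lie lowest, at -0.67, -0.76 and -1.05.

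The libraries themselves were uneven. Total counts of the 12 ran from 7230741 to 26280685, and the median correlation of a library with the others ran from 0.792 to 0.894, lowest in replicate 1 of sham in both strains and in replicate 1 of KK/HlJ at ISO day 14 and at ISO day 21. Libraries of one group differed by more than counting noise (chi-square per degree of freedom 62.22 to 163.5). Xist was read at 15.9 to 127 CPM, and 4 Y-linked genes held 0 to 9 counts per library. Leaving out the 4 libraries of lowest correlation raised the calls from 54 to 98, 50 of them shared. The calls numbered 42 to 55 over the 12 libraries left out in turn, and 34 of the 54 genes kept their call without each one.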

How the data were processed

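Stranded RNA-seq libraries of sorted heart cells were sequenced as single-end reads of 50 bases, per the labels' protocols. The deposited files hold raw counts per gene that the authors made from reads mapped with STAR 2.5.3a to mm10, and FastQC and edgeR are also named, per the submitters' processing notes. For the counting tool, its strand setting and its annotation the entry is the same: not given in the sources used here. Of 53342 gene IDs, 53237 matched GENCODE M21, and the other 105 hold 0.00159% of reads.

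The counts of the 12 libraries were tested with edgeR 4.0.16 (TMM scaling, robust quasi-likelihood, R 4.3.3) with terms for condition and strain. All 14465 genes that passed edgeR's filter on low counts entered, and a call needs an adjusted p (Benjamini-Hochberg) below 0.05. A fit with 6 groups gave the differences within conditions and the interaction. The SE is the size of the log2 difference divided by the square root of F. C57BL/6 levels were scaled with all 18 libraries, which moved values by -0.691 to 2.92 percent, and were not tested. Marker sums are per total counts. The floor is 3 counts per library, and floors and intervals cover counting error only.

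Named genes are up to 15 with the largest difference each way (11 met the rule in KK/HlJ and 9 in C3H/HeJ) among called genes without overlap of the strains, with a mean of at least 5 CPM in the higher strain, a formal symbol and no flag, then 5 flagged genes each way, up to 4 called members of each list, up to 5 interaction genes, and 8 genes given whatever they showed. The members and lists were chosen with earlier results of these data known.

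Same-numbered replicates were not paired: their deviations correlated at 0.106 in sham, -0.0254 at day 14 and 0.173 at day 21. On simulated counts for this comparison over 14465 genes, edgeR called 13 of 100 genes changed by 1 on the log2 scale and 61 of 100 changed by 2, with 1 false call. Alternatives used DESeq2 1.42.0 and limma 3.58.1, other filters, scalings and samples, a replicate block, and each library left out in turn.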

Additional observations from a re-analysis of the deposited data

Results flagged for a closer look

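Within the 6 libraries of a strain, 84 sets of values were examined for a library whose gap to its nearest neighbour exceeded 0.625 of the whole range, and 10 had one. For 6 independent values from a single normal distribution, chance flags about 1 in 20 sets. These sets are CPM values pooled over sham and both ISO days, so that rate need not hold for them. KK/HlJ sham replicate 1 stood at 158.7 CPM for Wfdc2, with the next library at 33.47 CPM. C3H/HeJ sham replicate 2 stood at 28.19 CPM for Abcc3, with the next at 15.7 CPM, and its summed pericyte and smooth muscle markers were at 4516 CPM against 2990 CPM.

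KK/HlJ ISO day 14 replicate 1, the library that correlated least with the others, stood apart in 4 sets. Its Mcm6 level was 19.32 CPM (next 9.81 CPM), its Acta2 level 849.7 CPM (next 458.8 CPM), its macrophage and monocyte sum 172.5 CPM (next 41.2 CPM) and its red cell sum 232.5 CPM (next 23.27 CPM). C3H/HeJ ISO day 21 replicate 1 stood apart in 3 marker sums, at 2705 CPM for endothelial markers (next 1138 CPM), 300.8 CPM for macrophage and monocyte markers (next 58.52 CPM) and 647.7 CPM for cardiomyocyte markers (next 243.4 CPM).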

How the results depend on the processing

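The 54 calls became 167 with DESeq2, 198 with limma voom and library weights, 131 with no filter on low counts, 98 without the 4 libraries of lowest correlation, 33 in sham libraries alone and 35 in ISO libraries alone. In ISO alone 60% of calls were higher in KK/HlJ, against 48.1% of the 54. With offsets for transcript length and GC content, added after seeing the data, it was 58.8% of 68 calls, and the median of all genes moved from -0.0407 to 0.079. These offsets ended the calls of Zbtb20 (adjusted p = 0.324), Bckdhb (0.106), Apoe (0.0715), Duoxa1 (0.0673) and Duox1 (0.0661). A mean of at least 5 CPM ended those of Zbtb20 (0.0759), Apoe (0.0631), Bckdhb (0.055), Abcc3 (0.0575) and Gm10499 (0.0687), and the fit of 6 groups those of 8 genes, Duox1, Bckdhb, Lypd1 and H2-Q2 among them. H2-Q2 also lost its call with all 18 libraries (0.0969). Leaving out each library gave 42 to 55 calls. Of the 54, 34 kept their call without each library, and 32 of these also under each of 10 alternatives examined gene by gene. Those 10 leave out sham alone, ISO alone and copies summed into families. In sham alone 24 of the 54 were called, and in ISO alone 30. Sparcl1 (edgeR adjusted p = 0.138) and C4b (0.16) were among the genes that lost their call in sham alone. Gimap6 (0.0802) was among those lost in ISO alone, and Hspa8 (0.0993) among those lost as a family sum. No called gene changed direction. The uncalled Postn, Acta2, Col3a1, Pdgfra and Thy1 did under 1 or more alternatives.

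The replicate block gave 60 calls, 47 shared with the 54, and ended the calls of Pianp (adjusted p = 0.0529) and Akr1e1 (0.0533) among others. For the interaction, DESeq2 called 3 genes, the fit without a filter 2, the replicate block 0, and leaving out each library 0 to 67. At a share of 50% of windows 10 of the 54 were flagged. The cause of these changes was not tested. Depth limits the genes near 0 in one strain, whose fitted differences rest on few counts.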
